A study of Homo sapiens with 6 samples.

Results

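The ERBB receptors, the EGF-type growth factors that bind them and the receptor inhibitor ERRFI1 were compared between MDA-MB-231 cells and cells derived from them that had been made resistant to Adriamycin (ADR, doxorubicin). The group was taken by gene name and holds 10 of the 58735 genes in the count table: the receptors EGFR, ERBB2 and ERBB3, the ligands EREG, AREG, HBEGF, TGFA, BTC and NRG1, and the inhibitor ERRFI1. Each name matched 1 gene, and all 10 passed the filter on low counts that left 15242 genes to test. MDA-MB-231 is a human triple-negative breast cancer cell line. The parent group (3 libraries) is this line with no drug selection named in its labels. The ADRr group (3 libraries) is labelled ADR resistant. According to the study's methods, ADRr cells survived rising doses of ADR, after which single clones were picked by limiting dilution, so a difference between the groups may be that of a clone. Whether ADR was present at harvest is not given in the sources used here. Both groups were grown in DMEM with fetal bovine serum. The labels do not say that libraries of a group came from separate cultures, so that p-values measure the spread between these libraries, which may be technical.

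ERBB receptors are tyrosine kinases of the cell surface that pair with each other when a ligand binds. AREG and TGFA bind EGFR, HBEGF, BTC and EREG bind EGFR and ERBB4, and NRG1 binds ERBB3 and ERBB4. ERBB2 has no known ligand of its own and serves as the favoured partner of the others, and ERBB3 has little kinase activity. All of these ligands are made as membrane proteins, most of which are cut free by ADAM proteases. ERRFI1 (also called MIG6) binds the kinase domain of active EGFR, shuts it off and is itself induced by EGFR signalling. Triple-negative breast cancers often make much EGFR and, by definition, lack ERBB2 amplification.

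Of the 10 genes, 8 were higher in ADRr cells, 1 was lower and 1 was not called. EGFR mRNA rose 2.63-fold while ERBB2 mRNA fell to 0.422 of its parent level, and ERBB3 differed by less than the spread between libraries. All 6 ligands rose, AREG and TGFA the most, at 3.22-fold and 2.93-fold. ERRFI1 rose 2.81-fold. A call needed both a change of 1.2-fold or more, up or down, and an adjusted p no larger than 0.05 (edgeR's quasi-likelihood test, Benjamini-Hochberg over all genes tested). Changes were common in this comparison: 29.2% of all genes tested were called higher and 29.6% lower. A fold of at least 2 was rarer, with 9.74% of genes called higher and 9.05% called lower at that size, against 4 (EGFR, AREG, TGFA and ERRFI1) and 1 (ERBB2) of the 10 genes here. The median log2 fold change was 0.84 over the 10 genes and -0.01 over all genes tested. For 8 of the 10 all ADRr libraries exceeded all parent libraries, and for 1 they all lay lower, which in all genes tested was so for 34.5% and 34.7%. The counts are from whole cultures, in which fewer cells making an mRNA and less mRNA per cell cannot be told apart.

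**Figure D1:**
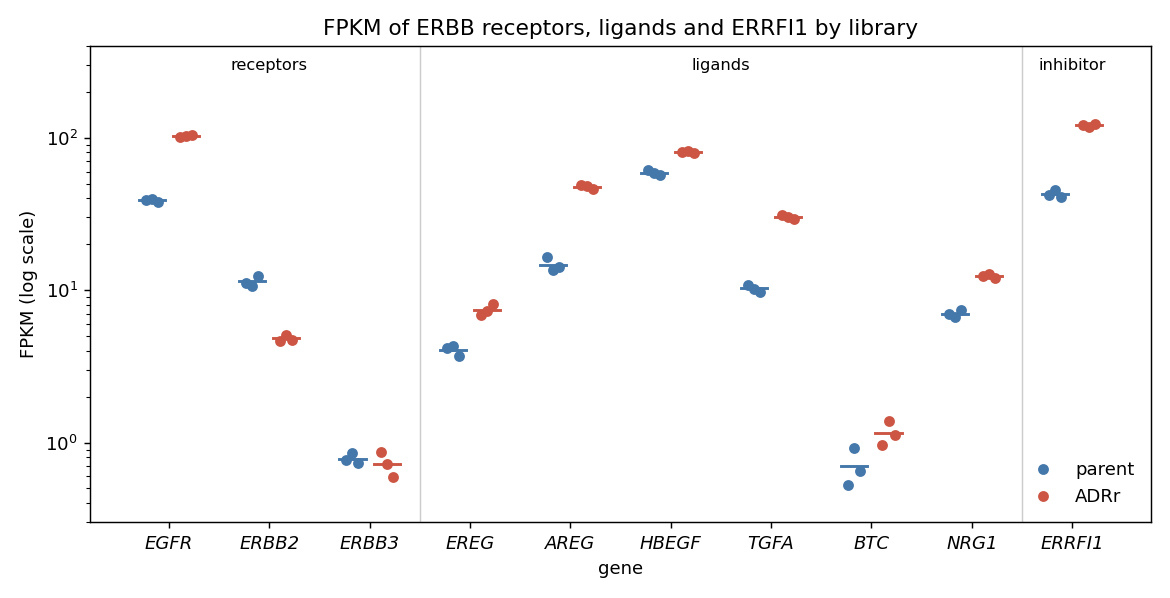
FPKM (fragments per kilobase of gene length, scaled to library depth, log axis) of the 10 genes in each library, with parent libraries in blue, ADRr libraries in red and a bar at each group's mean. EGFR sits between 37.7 and 39.7 in parent and between 101.5 and 103.8 in ADRr libraries, ERBB2 moves the other way, and the libraries of the groups overlap for ERBB3 only.

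Library totals ranged from 15983985 to 18272314 counts, and TMM factors from 0.987 to 1.01. The 10 genes had between 25 counts (BTC) and 24207 counts (EGFR) in a library, and 9 of them had at least 100 in every library. The line's mesenchymal markers VIM, CD44 and MSN were at 66.5 to 146 FPKM in the group means. VIM was called lower (log2 fold change -0.56) and CD44 higher (0.80). MSN had a log2 fold change of 0.13 (adjusted p = 0.018 from edgeR) and was not called, as this is below the fold threshold. The paper reports more MSN protein in ADRr cells, whereas these values are of mRNA. ESR1 and PGR, the hormone receptors that triple-negative cells lack, had at most 1 count in any library. Of 8 luminal markers 5 had at most 2 counts in every library, and the summed level of the 8 was 14.3 to 17.1 FPKM in parent and 19.0 to 19.6 in ADRr libraries. The markers did not move together. By group mean EPCAM went from 4.88 to 10.5 FPKM (called higher) and CDH1 from 2.34 to 1.12 (called lower). GATA3 went from 8.73 to 7.51 FPKM and was not called. Of 8 leukocyte markers 7 had at most 4 counts in every library, and the summed level, nearly all of it CD14, was 2.65 to 3.93 FPKM in parent and 2.59 to 3.29 in ADRr libraries.

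The promoters of AREG, EREG and EGFR are shown because these ligand and receptor genes rose together and because AREG and EREG are neighbours on chromosome 4. Each is the 250 bases before the RefSeq start site on GRCh38.p14, 5′ to 3′ on the gene's strand. AREG lies at chr4:74444886-74445135 (plus strand), EREG at chr4:74364895-74365144 (plus strand) and EGFR at chr7:55018767-55019016 (plus strand). Capitals mark matches to a CRE (TGACGTCA) or a TATA box (TATAAA), and GC boxes are not marked.
AREG: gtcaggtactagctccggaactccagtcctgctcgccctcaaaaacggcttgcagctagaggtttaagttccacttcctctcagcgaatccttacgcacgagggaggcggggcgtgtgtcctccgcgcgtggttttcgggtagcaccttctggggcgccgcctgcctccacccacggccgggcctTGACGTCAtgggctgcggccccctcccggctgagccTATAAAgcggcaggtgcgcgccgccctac
EREG: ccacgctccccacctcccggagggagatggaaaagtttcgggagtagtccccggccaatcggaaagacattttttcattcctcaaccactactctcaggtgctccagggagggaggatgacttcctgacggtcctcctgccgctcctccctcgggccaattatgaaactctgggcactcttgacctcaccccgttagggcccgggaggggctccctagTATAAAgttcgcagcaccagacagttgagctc
EGFR: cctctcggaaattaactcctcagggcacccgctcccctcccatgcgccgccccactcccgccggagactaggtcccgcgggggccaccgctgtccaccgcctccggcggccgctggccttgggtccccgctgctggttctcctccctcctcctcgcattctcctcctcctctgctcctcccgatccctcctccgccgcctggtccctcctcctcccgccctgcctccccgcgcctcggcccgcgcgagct

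In the AREG promoter a CRE begins 65 bases and a TATA box 29 bases before the start site. EREG has a TATA box 32 bases before its start and no CRE letters in this window. The EGFR promoter has neither, and 73.6% of its bases are G or C, against 65.2% for AREG, 58.0% for EREG and a median of 58.0% over all 35116 windows. Of all windows, 1.65% hold a CRE and 10.7% a TATA box. AP-1 letters (TGANTCA, in 6.57% of windows) and STAT letters (TTCNNNGAA, 6.57%) were found in none of the 3 printed windows, nor was the NF-κB motif (9.96%). GC boxes (GGGCGG, 42.6%) were found once in AREG and at 2 places in EGFR. Both strands were searched, and no motif overlapped another in these 3 windows. Windows were used for 8 of the 10 genes. A second EGFR window, at an internal RefSeq start, holds 2 AP-1 matches and 2 TATA boxes, and the ERBB2 window holds 1 AP-1 match. The NF-κB motif was matched once in the first TGFA window and at 2 places in the BTC window. These are matches of letters, and the counts used here measure no binding. The paper did test STAT3 at EREG by chromatin immunoprecipitation, with primers near its start site. It proposes that phosphorylated STAT3 together with MSN activates this gene. The evidence it gives for this is from cell lines with suppressed MSN, not from ADRr cells. The stemness genes it kept in the end were IGFN1, EML1 and SRGN, without EREG.

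EGFR (ENSG00000146648, chromosome 7, 55019021 to 55211628, GRCh38, plus strand) had 8553, 8698 and 8280 normalized counts in parent replicates 1 to 3 and 22156, 22363 and 22607 in ADRr replicates 1 to 3. All ADRr libraries lay far above all parent libraries, and those of a group differed little. EGFR rose by 1.39 on the log2 scale (SE 0.044, edgeR adjusted p = 1.6e-17), a change larger in size than that of 89.8% of genes tested. Per length, EGFR was at 38.9 ± 1.03 FPKM in parent cells and 102 ± 1.197 in ADRr cells (SD, n = 3 libraries each). By group mean it went from rank 1120 to rank 308 among the genes tested. EGFR-AS1, an antisense gene inside EGFR, rose by 2.00 on the log2 scale from 12.6 to 51.0 normalized counts. Whether reads were counted by strand is not stated, so reads of the pair may not be fully separated, but the highest count of EGFR-AS1 in a library was 57.

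ERBB2 (ENSG00000141736, chromosome 17, 39687914 to 39730426, plus strand), the HER2 receptor, had 2003, 1931 and 2243 normalized counts in parent libraries and 840, 923 and 845 in ADRr libraries. The groups did not overlap, and parent replicate 3 was the highest. ERBB2 fell by 1.24 on the log2 scale (SE 0.068, edgeR adjusted p = 2.4e-13). Its level fell from 11.4 ± 0.885 to 4.83 ± 0.245 FPKM (SD, n = 3 libraries each), below that of every ligand but BTC in ADRr cells. PGAP3 and MIEN1 overlap ERBB2 on the other strand with at most 212 and 342 counts in a library. PGAP3 also fell, by 1.47, and MIEN1 had a log2 fold change of 0.01 (adjusted p = 0.97 from edgeR).

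ERBB3 (ENSG00000065361, chromosome 12, 56076799 to 56103505, plus strand), the main receptor of NRG1, had 120, 135 and 117 normalized counts in parent libraries and 137, 114 and 93.4 in ADRr libraries. The groups overlapped, with ADRr replicate 1 above and ADRr replicate 3 below every parent library. The log2 fold change was -0.11 with a 95% interval from -0.45 to 0.22 (adjusted p = 0.56 from edgeR), and a change within these bounds was not detectable at this depth and spread. At 0.785 ± 0.0615 and 0.728 ± 0.138 FPKM (SD, n = 3 libraries each), ERBB3 was the lowest of the 3 receptors in both groups. ERBB4 had a count of 0 in all 6 libraries, which allows up to 0.164 to 0.188 CPM, counts scaled to library size, by counting error alone.

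The opposite moves of EGFR and ERBB2 changed the make-up of the receptor mRNA, a quantity that does not depend on how libraries are scaled. EGFR was 3.52, 3.71 and 3.04 times as abundant as ERBB2 per length in the parent libraries and 21.7, 20.0 and 22.05 times in the ADRr libraries. The ratios of the groups do not overlap (exact permutation test, two-sided, p = 0.1, the smallest that 3 against 3 libraries allow). Since EGFR was higher and ERBB2 lower in every ADRr library, this had to be so, and the test adds nothing. EGFR made up 76.1 ± 1.73% of the summed FPKM of the 3 receptors in parent cells and 94.9 ± 0.274% in ADRr cells (SD, n = 3 libraries each). The share of ERBB2 went from 22.3 ± 1.82% to 4.47 ± 0.231%. These ratios were chosen after the values had been seen.

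**Figure D2:**
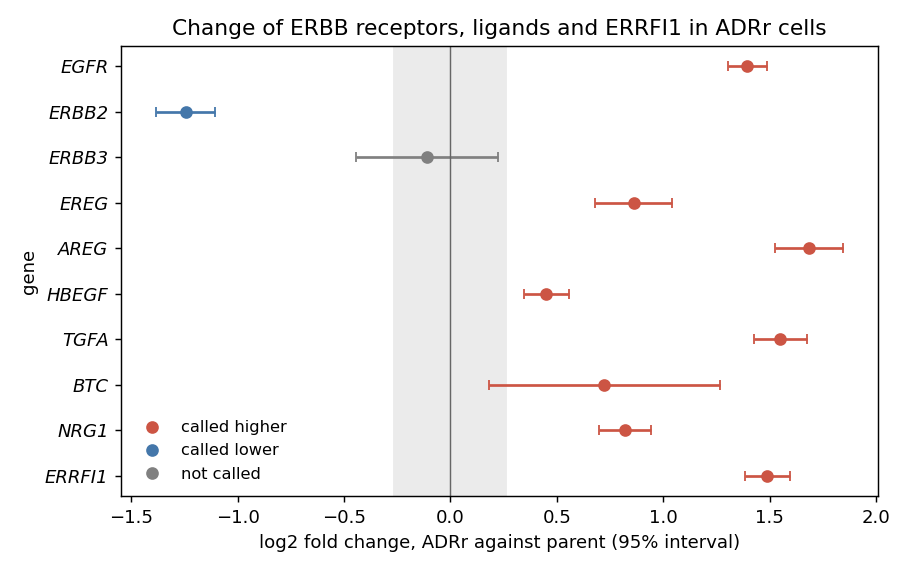
Log2 fold change of each gene in ADRr against parent cells from edgeR, with 95% intervals; the grey band marks folds under 1.2, and colours mark genes called higher, lower or not called. AREG, TGFA, ERRFI1 and EGFR lie between 1.39 and 1.69, ERBB2 at -1.24, and the interval of BTC reaches into the band.

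AREG, amphiregulin, the ligand with the largest change (ENSG00000109321, chromosome 4, 74445134 to 74455009, plus strand), had 471, 393 and 409 normalized counts in parent libraries and 1399, 1389 and 1313 in ADRr libraries. Each ADRr library held more than each parent library by a wide margin. AREG rose by 1.69 on the log2 scale (SE 0.077, edgeR adjusted p = 1.0e-14), and the level rose from 14.7 ± 1.48 to 47.6 ± 1.54 FPKM (SD, n = 3 libraries each).

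TGFA, the transforming growth factor alpha that tumour cells often make for their own EGFR (ENSG00000163235, chromosome 2, 70447280 to 70554193, minus strand), had 942, 889 and 844 normalized counts in parent libraries and 2671, 2624 and 2538 in ADRr libraries. The groups were far apart here too. TGFA rose by 1.55 on the log2 scale (SE 0.061, edgeR adjusted p = 6.4e-16), and the level went from 10.3 ± 0.591 to 30.2 ± 0.735 FPKM.

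HBEGF, heparin-binding EGF, was the ligand with the highest level per length in both groups (ENSG00000113070, chromosome 5, 140332843 to 140346631, minus strand) and the one with the smallest change. It had 3253, 3077 and 3007 normalized counts in parent libraries and 4259, 4331 and 4173 in ADRr libraries. The groups did not overlap, and the rise was 0.45 on the log2 scale (SE 0.051, edgeR adjusted p = 6.2e-08), close to the size of the median gene, since 49.7% of genes tested changed less. The level was 59.0 ± 2.58 FPKM in parent and 80.8 ± 1.28 in ADRr cells.

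EREG, epiregulin (ENSG00000124882, chromosome 4, 74365143 to 74388751, plus strand), had 415, 432 and 373 normalized counts in parent libraries and 682, 729 and 800 in ADRr libraries. ADRr replicate 3 was the highest, and the groups did not overlap. EREG rose by 0.86 on the log2 scale (SE 0.086, edgeR adjusted p = 9.1e-09), and the level went from 4.06 ± 0.308 to 7.40 ± 0.608 FPKM. NRG1, neuregulin 1 (ENSG00000157168, chromosome 8, 31639386 to 32767959, plus strand), had 1376, 1315 and 1464 normalized counts in parent libraries and 2435, 2545 and 2364 in ADRr libraries. Again all ADRr libraries lay above all parent libraries. NRG1 rose by 0.82 on the log2 scale (SE 0.059, edgeR adjusted p = 3.3e-11), and the level went from 6.99 ± 0.368 to 12.4 ± 0.427 FPKM.

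BTC, betacellulin (ENSG00000174808, chromosome 4, 74744759 to 74794686, minus strand), was the least abundant ligand, with 25.7, 45.4 and 32.1 normalized counts in parent libraries and 47.6, 68.0 and 55.1 in ADRr libraries. The lowest ADRr library was only just above the highest parent library. BTC rose by 0.72 on the log2 scale (SE 0.26, edgeR adjusted p = 0.019), and this call did not hold in every fit. The adjusted p was 0.067 in DESeq2, 0.096 without parent replicate 1 and 0.096 without ADRr replicate 2, and ranged from 0.0040 to 0.10 over the alternatives.

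The 6 ligands summed to 95.7 ± 4.44 FPKM in parent cells and 179.5 ± 3.204 in ADRr cells (SD, n = 3 libraries each), 1.88 times as much. The groups did not overlap (exact permutation test, two-sided, p = 0.1, the smallest possible). Since each ligand was itself higher in every ADRr library, this had to be so, and the test adds nothing. HBEGF made up 61.4, 62.0 and 61.5% of the sum in the parent libraries and 44.8, 45.1 and 45.2% in the ADRr libraries. The share of AREG went from 15.4 ± 0.897% to 26.5 ± 0.452% and that of TGFA from 10.7 ± 0.206% to 16.8 ± 0.251%, both without overlap. Shares of NRG1, EREG and BTC overlapped between the groups. The 5 ligands of EGFR, all but NRG1, held 2.28 ± 0.0998 times the FPKM of EGFR in parent cells and 1.63 ± 0.0454 times in ADRr cells, since the rise of EGFR exceeded that of the ligands' sum.

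**Figure D3:**
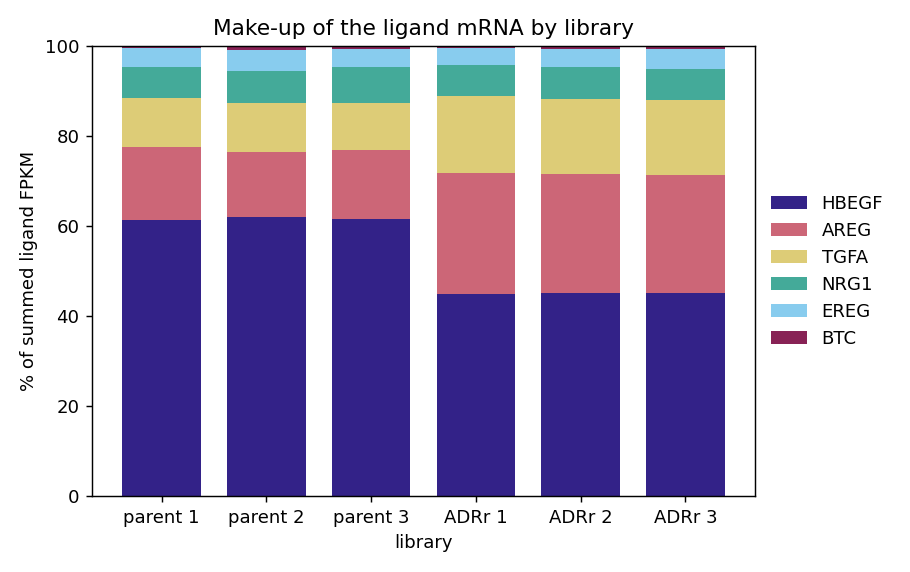
Share of each ligand in the summed FPKM of the 6 ligands (%), as a stacked bar for each library. HBEGF takes 61.4 to 62.0% in parent and 44.8 to 45.2% in ADRr libraries, and the bars of a group look alike.

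ERRFI1 (ENSG00000116285, chromosome 1, 8004404 to 8026308, minus strand) had 3079, 3342 and 3004 normalized counts in parent libraries and 8851, 8667 and 8946 in ADRr libraries. All ADRr libraries lay far above all parent libraries. ERRFI1 rose by 1.49 on the log2 scale (SE 0.051, edgeR adjusted p = 7.3e-17), and the level rose from 42.9 ± 2.42 to 121 ± 2.28 FPKM. Per length, ERRFI1 and EGFR thus moved in nearly the same proportion. Their ratio was 1.08, 1.15 and 1.09 in the parent libraries and 1.195, 1.16 and 1.18 in the ADRr libraries. The groups did not overlap, if narrowly, and the group mean was 1.07 times as high in ADRr cells. The exact permutation test (two-sided, p = 0.1) gave the smallest value possible with so few libraries, so it cannot decide whether the ratio differs. An antisense gene that overlaps ERRFI1 had at most 51 counts in a library.

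In order of FPKM, parent cells held most HBEGF, then ERRFI1, EGFR, AREG, ERBB2, TGFA, NRG1, EREG, ERBB3 and BTC. Neighbours in this order did not overlap between their libraries, apart from ERBB2 with TGFA and ERBB3 with BTC. In ADRr cells the order was ERRFI1, EGFR, HBEGF, AREG, TGFA, NRG1, EREG, ERBB2, BTC and ERBB3, with no overlap between neighbours. ERBB2 thus went from the fifth place to the eighth.

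The remaining ERBB ligands were scarce. EGF itself was the only one of 6 further family members (ERBB4, EGF, EPGN, NRG2, NRG3 and NRG4) with enough counts to test. It had 42, 55 and 53 counts in parent libraries and 20, 16 and 22 in ADRr libraries. Its log2 fold change was -1.44 (adjusted p = 1.1e-04 from edgeR), the opposite direction to the 6 ligands above. EGF lies below the 100 normalized counts asked of other named genes, and its values had been seen when it was picked.

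AREG, EREG and BTC lie within one stretch of chromosome 4, with the starts of EREG and AREG 80.0 kb apart and those of AREG and BTC 299.6 kb apart in gene coordinates. All 3 rose. The nearest tested genes around them did not all move the same way: on one side MTHFD2L fell by 0.33 on the log2 scale while CXCL2 and CXCL3, chemokine genes, rose by 1.53 and 0.72. On the other side RCHY1 fell by 0.62, ODAPH, the third gene beyond BTC, fell by 2.22, and THAP6 had a log2 fold change of 0.20 (adjusted p = 0.084 from edgeR). Around ERBB2, STARD3, PGAP3 and GRB7 fell by 0.86, 1.47 and 0.75, and the other 3 of its 6 neighbours were not called. Beside EGFR, GRB10, an adaptor that binds receptor tyrosine kinases, rose by 1.31 and EGFR-AS1 by 2.00. On the same scale COBL fell by 1.75, SEC61G fell by 0.48 and VOPP1 fell by 0.91, and LANCL2 had a log2 fold change of 0.25, below the fold threshold. Of the 6 neighbours of ERRFI1, 3 were called higher and the other 3 were not called, with a median log2 fold change of 1.26. TNFRSF9 rose by 1.91 from 73.2 to 275 normalized counts, and the long noncoding RNAs AL034417.2 and LINC01714 rose by 2.83 and 2.44 from means under 10 normalized counts. Over all 10 genes, 12 of 48 distinct neighbours were called higher and 14 lower, with a median log2 fold change of 0.03. These shares are close to the 29.2% and 29.6% of all genes tested.

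**Figure D4:**
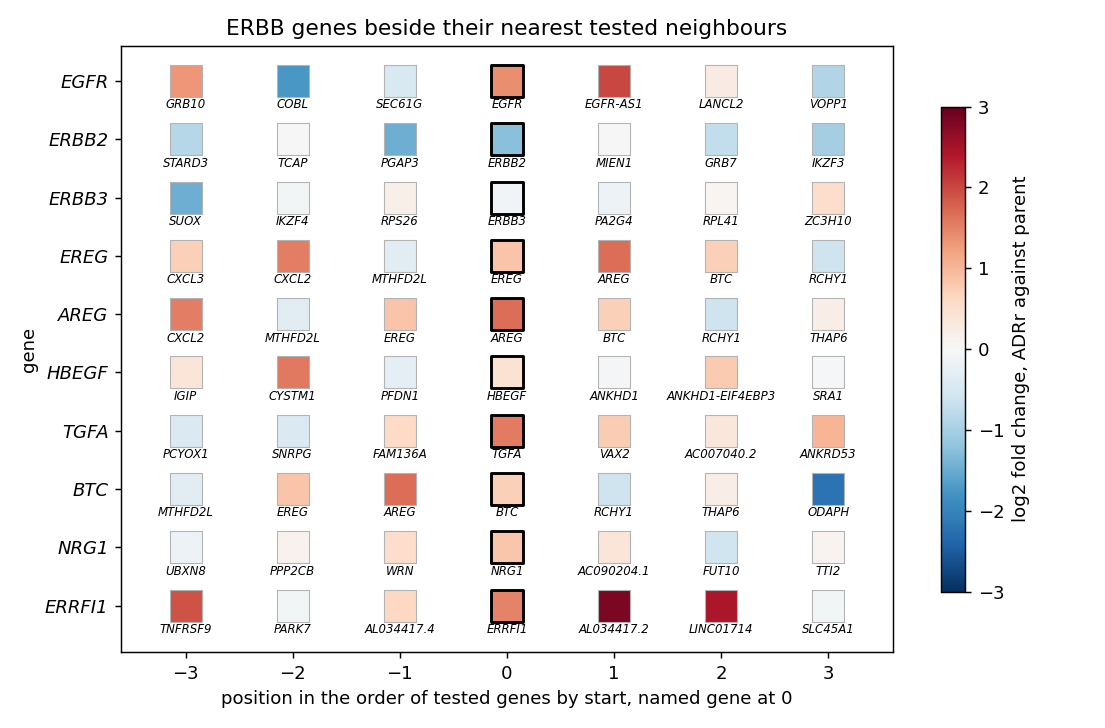
Log2 fold change (red higher, blue lower in ADRr cells) of each gene, in a black frame, and of the 3 nearest tested genes on either side in order of start position. The genes beside EGFR and the chromosome 4 ligands show both colours, while 3 of the 6 neighbours of ERBB2 were called lower and the other 3 were not called.

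The other genes of the pathway were taken from lists written by hand, with earlier results of these data known. Of the 12 genes that release ligands or control this step, 6 were called higher and 4 lower (median log2 fold change 0.29). The shares in all genes tested were 29.2% higher and 29.6% lower. The list is short and moved both ways, and whether it differs from all genes was not tested. ADAM17, the main sheddase of AREG, TGFA, EREG and HBEGF, rose by 1.04 from 855 to 1756 normalized counts, and RHBDF2, the iRhom protein that brings ADAM17 to the surface, rose by 0.83. ADAM10, which cuts BTC and EGF, fell by 1.70 from 9622 to 2954 normalized counts. ADAM8 had the largest rise of this list (2.61), and ADAM9 and ADAM19 fell by 0.73 and 0.93.

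Of 33 tested signal transducers 11 were called higher and 8 lower, with a median log2 fold change of 0.05. These shares, 33.3% and 24.2%, are near the 29.2% and 29.6% of all genes tested. Among adaptors and PI3K genes, PIK3CD rose by 1.06, GAB2 by 0.90 and PIK3R1 by 0.88, while VAV2 and PLCG1 fell by 0.59 and 0.46.

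Genes that attenuate the receptors were called higher in 19 and lower in 3 of 26 tested (median log2 fold change 0.42). The share called higher was 73.1%, against 29.2% in all genes tested. Most of these rises were small. At a fold of at least 2, only 3 of the 26 were called higher and 1 lower, against 9.74% and 9.05% of all genes tested. LRIG1, LRIG2 and LRIG3, membrane proteins that restrain ERBB receptors, rose by 0.33, 0.43 and 0.80. CBLB, a ubiquitin ligase that acts on EGFR, rose by 1.61 from 246 to 748 normalized counts. NEDD4L, a ubiquitin ligase of endocytosed membrane proteins, rose by 1.87, and EPN2, an endocytic adaptor, by 1.03. PTPRJ, a receptor phosphatase that acts on EGFR, fell by 1.46 from 5432 to 1972 normalized counts, and EPN1 and PTPN1 fell by 0.52 and 0.46.

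Of 34 tested genes that EGF is known to induce, 24 were called higher (70.6%) and the other 10 were not called by edgeR. In all genes tested 29.2% were called higher. The median log2 fold change of the list was 0.71. Of its genes 27 passed the adjusted p alone, CCND1 and SPRED1 with negative values of -0.26 and -0.22. Many of the listed genes respond to other signals too. The feedback inhibitors of ERK signalling in this list include the DUSP phosphatases and the SPRY and SPRED proteins. They were called higher in 9 of 11 (81.8%), and the other 2 were not called. DUSP5, a phosphatase of nuclear ERK, rose by 3.81 from 579 to 8153 normalized counts and SPRED3 by 2.45. Of the list's 14 tested transcription factors 8 were called higher (57.1%) and the other 6 were not called. MAFF rose by 2.38, ATF3 by 2.12 and KLF6 by 1.64, while EGR1, FOS and FOSL1 had log2 fold changes of 0.14, -0.14 and -0.06 and were not called. No phosphorylation and no protein was measured.

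**Figure D5:**
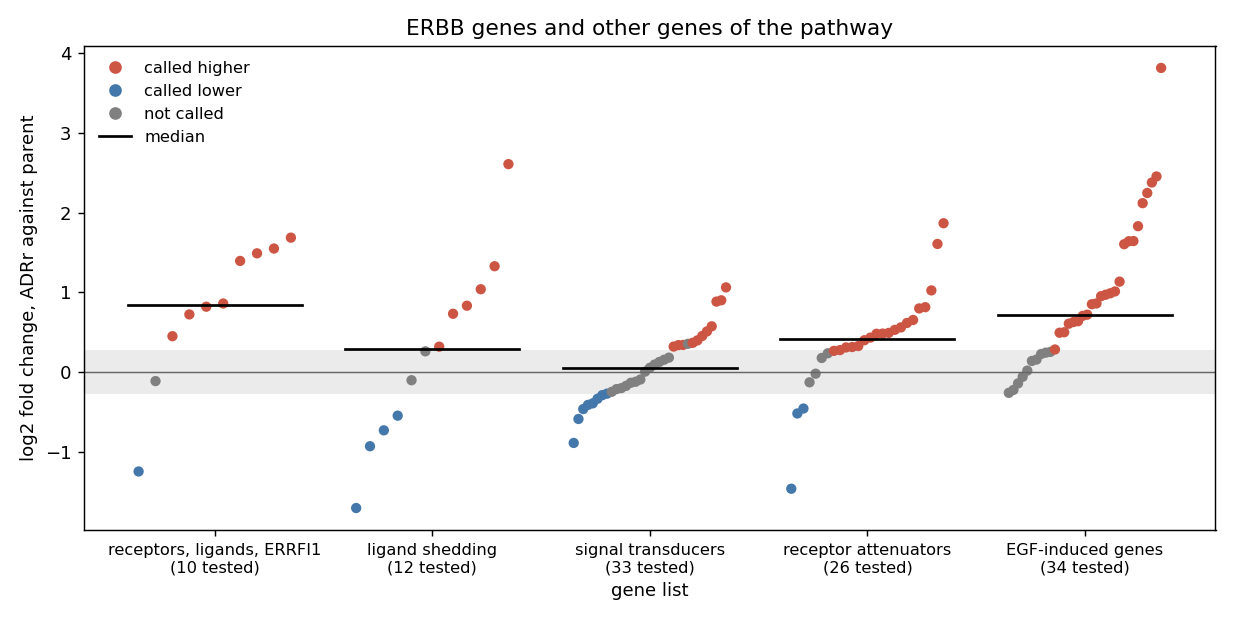
Log2 fold change of each tested gene (points, ordered within a list) in the 10 genes and 4 lists of pathway genes, with the list's median as a black bar, colours for the call and a grey band for folds under 1.2. The medians are 0.84 for the 10 genes, 0.29 for ligand shedding, 0.05 for signal transducers, 0.42 for receptor attenuators and 0.71 for EGF-induced genes.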

How the data were processed

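Polyadenylated RNA of 3 parent and 3 ADRr libraries had been sequenced by the authors as paired-end reads. Per the labels and the methods, reads were mapped to GRCh38 with HISAT2 2.0.5 and counted per gene with featureCounts 1.5.0-p3, and the strand setting is not given in the sources used here. The authors deposited counts without normalization, and FPKM values that divide them by gene length and depth. Paper and labels name different library kits. The series record mentions time points that no label names. Each group's 3 libraries were taken as replicates, but the labels cannot show whether they differ in time.

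Counts were analysed with edgeR 4.0.16 in R 4.3.3 (filterByExpr, TMM, quasi-likelihood test, Benjamini-Hochberg over 15242 genes). Normalized counts are counts scaled to the mean effective library size. Levels were compared between genes on FPKM only. Motifs were searched in RefSeq promoter windows (250 bases, GRCh38.p14). The fits were run on simulated data with the same spread for every gene and few changed genes. These data differ from that setting, so the simulation does not show that the calls made here are right. Depth, 15983985 to 18272314 counts, limits precision for BTC and ERBB3, and floors of 3 counts cover counting error only. Within groups libraries differed by more than sampling noise (chi-square per degree of freedom 2.52 to 7.71).

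All 10 genes were named. From each list the 3 largest called increases and decreases were named if their groups did not overlap and the mean of either group reached 100 normalized counts. Neighbours were named by position, and from the marker lists, LRIG genes and early transcription factors further genes were named after their values were seen. Some signal transducers are not reported here by name. The genes and lists were chosen with earlier results of these data known. Alternatives were DESeq2 1.42.0, other size factors, other filters, limma-trend 3.58.1 on log2(FPKM + 1) or log2(FPKM + 0.1), a replicate block, each library left out and other call thresholds.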

Additional observations from a re-analysis of the deposited data

How the results depend on the processing

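EGFR, ERBB2, AREG, TGFA and ERRFI1 kept their direction and call under every alternative. The log2 fold change of EGFR lay between 1.37 and 1.42, that of ERBB2 between -1.30 and -1.09, AREG 1.63 to 1.76, TGFA 1.47 to 1.59 and ERRFI1 1.46 to 1.53. When a log2 change of 1.2 or more in size was required, 4 of the 10 genes were called higher, and EREG (0.86), HBEGF (0.45), NRG1 (0.82) and BTC (0.72) were no longer called. The same threshold gave 2 higher and 1 lower of 12 ligand shedding genes, and 0 and 0 of 33 signal transducers. It gave 2 and 1 of 26 receptor attenuators, and 9 higher of 34 EGF-induced genes. Of 48 neighbours 7 were higher and 4 lower, and of all 15242 genes tested 1114 and 972. With the adjusted p alone, 13 signal transducers and 2 EGF-induced genes were lower. With limma-trend on log2(FPKM + 1), with or without its filter, 5 signal transducers were lower. EGF was not tested under the limma filter, so that 0 of the further ERBB family genes was lower there with either pseudocount. The log2 fold change of ERBB3 ranged from -0.25 to 0.020 with a library left out, and its direction reversed without ADRr replicate 3 (0.020, edgeR adjusted p = 0.93). With a library left out, 0 to 1 EGF-induced genes were called lower (CCND1 or SPRED1).

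A replicate block changed no call of the 10 genes (BTC 0.74, adjusted p = 0.014 from edgeR) and moved no count of calls by over 1.5 times, and 8 were called higher with it. The replicate numbers did not pair the libraries, since same-numbered libraries deviated from their group means with correlations of -0.05 to 0.01. Rescaling FPKM to a fixed sum per library moved no ratio of group levels beyond its SD.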
